A study of Homo sapiens with 12 samples.

Results

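The integrated stress response was followed here through 10 genes that encode its transcription factors and effectors, out of 23500 genes counted in HEK293T and R1 cells. They were chosen by name as known components of the response, with earlier results of these data already known. Counts and medians of the set are therefore descriptive. Each of the 10 symbols was found and passed the filter on low counts. The values below are levels of mRNA. HEK293T is a human embryonic kidney line that carries the SV40 large T antigen and depends on methionine for proliferation, and R1 is a methionine-independent line derived from it as a single clone. Both were kept for 12 h with methionine (+Met) or with homocysteine in its place (−Met+Hcy). Both media shared dialyzed serum, glutamine, cysteine and vitamin B12. Each of the 4 groups had 3 libraries, which the labels number without saying that they came from separate cultures. P-values therefore measure the spread between these libraries, which may be technical. The R1 libraries are R1 by title, while their cell line label reads HEK293T.

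In this response, kinases that sense amino acid shortage, unfolded protein, viral RNA or heme deficit phosphorylate the initiation factor eIF2, which lowers translation overall. The mRNAs of ATF4, ATF5 and DDIT3 (CHOP) carry upstream reading frames and are translated better under these conditions, so their protein can rise without more mRNA. ATF4 then acts with C/EBP partners on genes of amino acid supply, and some targets, among them TRIB3 and PPP1R15A (GADD34), feed back to restrain it.

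ATF4 binds, as a dimer with a C/EBP protein, a composite element written TGATGNAA in the form searched here, whereas ATF and CREB dimers bind TGACGTCA and AP-1 dimers bind TGANTCA. The 250 bases before each RefSeq start site (build GRCh38.p14) were searched for these letters on both strands, and 9 of the 10 genes had such a window. The composite element was found for CEBPG, JDP2 and ATF3, and in 3.2% of the 15269 genes with a window. Its stricter form TGATGCAA, a subset of the first, was found for CEBPG and JDP2 and in 0.812% of genes. All shares of genes given here count a gene when any of its windows matches, and the 9 members have 1 to 3 windows each. Of all 21514 windows, 2.38% held the composite element and 0.6% its stricter form. TGACGTCA was found for PPP1R15A and in 2.76% of genes, TGANTCA for ATF5 and DDIT3 and in 7.1% of genes, and the ER stress element (ERSE) for no member and in 0.138% of genes. A match describes these letters and is no evidence of binding. The sequences are shown because the genes that carry them are the ones whose levels are compared below, with the matched letters in capitals.
CEBPG: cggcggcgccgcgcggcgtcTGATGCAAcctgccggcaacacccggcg
JDP2: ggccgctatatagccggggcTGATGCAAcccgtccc
ATF3: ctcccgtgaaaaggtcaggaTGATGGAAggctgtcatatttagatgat
PPP1R15A: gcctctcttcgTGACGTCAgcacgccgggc
DDIT3: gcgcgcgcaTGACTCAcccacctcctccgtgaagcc
The CEBPG stretch lies at chr19:33374051-33374098 and the JDP2 stretch at chr14:75427986-75428021, both on the plus strand and inside the gene but outside its exons. The ATF3 stretch lies at chr1:212565196-212565243 on the plus strand, outside the annotated gene. The PPP1R15A stretch lies at chr19:48872352-48872381 on the plus strand, in an exon of another transcript, and the DDIT3 stretch at chr12:57520729-57520764 on the minus strand, in an intron. The CEBPG element begins 42 bases before a start site, the JDP2 element 16 bases before and the ATF3 element 191 bases before.

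Total counts ran from 12664158 to 18771349 per library. Levels are given as CPM, a gene's count divided by the column sum and set to a common total. Fold changes come from edgeR's model with TMM scaling, which divides by a factor of 0.828 to 0.882 in HEK293T +Met libraries and 0.93 to 1.12 in the others. Without TMM, the median log2 fold change of all genes moved from 0.03 to 0.33 in HEK293T cells and from 0.02 to 0.37 for R1 against HEK293T in +Met, so ratios of CPM that involve HEK293T cells in +Met differ from the fitted fold changes by about that shift. R1 −Met+Hcy replicate 3 stood apart from the other libraries: Spearman's rho between its deviation from its group and transcript GC content was -0.744 across 11043 genes, against -0.338 to 0.537 elsewhere, and the common dispersion fell from 0.109 to 0.0349 without it. It was kept, and results are given with and without it. The 10 fixed markers of HEK293 cells were all detected in each group, with a summed level of 552 to 1193 CPM per library. VIM made up most of the mean sum in each group. By edgeR, VIM was called lower in HEK293T cells in −Met+Hcy, and no HEK293 marker was called in the R1 response. In R1 against HEK293T in +Met, PAX2, NES, CDH2, KRT8 and INA were called higher and NEFM lower. In −Met+Hcy, PAX2, NES and CDH2 were called higher in R1 and NEFM lower. Of 8 markers of the study's breast cancer line, KRT5 was at 0 in each group. The summed level of the 8 was 4.51 to 9.4 CPM in HEK293T and 12.5 to 23.6 CPM in R1. EGFR was highest, with means of 4.15 and 3.83 CPM in HEK293T and 15.2 and 13.4 CPM in R1 (+Met, then −Met+Hcy). Of the 5 tested, CDH1 was called higher in HEK293T cells in −Met+Hcy. In R1 against HEK293T, EGFR and CDH1 were called higher in +Met, EGFR, CD24 and EPCAM in −Met+Hcy, and none lower. Of 3 blood markers, LYZ was at 0 and the sum reached at most 1.12 CPM, and of 4 fibroblast markers the sum was 9.12 to 40.9 CPM, nearly all of it COL1A1. Their part in the results was not tested.

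The first question was how the genes responded to −Met+Hcy in methionine-dependent HEK293T cells. NUPR1, ATF3, CEBPG, JDP2 and DDIT3 rose, 5 of the 10, and none fell. Calls required more than 1 log2 unit in either direction together with a p-value, adjusted by Benjamini-Hochberg over the 17162 genes tested, under 0.05, and 3.04% of all genes tested were called higher. The median log2 fold change of the 10 was 1.45, against 0.03 for all genes. Levels were higher in all 3 −Met+Hcy libraries than in all 3 +Met libraries for 9 of the 10, the exception being ATF5, and for 38.6% of all genes tested. In bulk RNA, a change per cell and a change in the share of responding cells cannot be told apart.

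**Figure D1:**
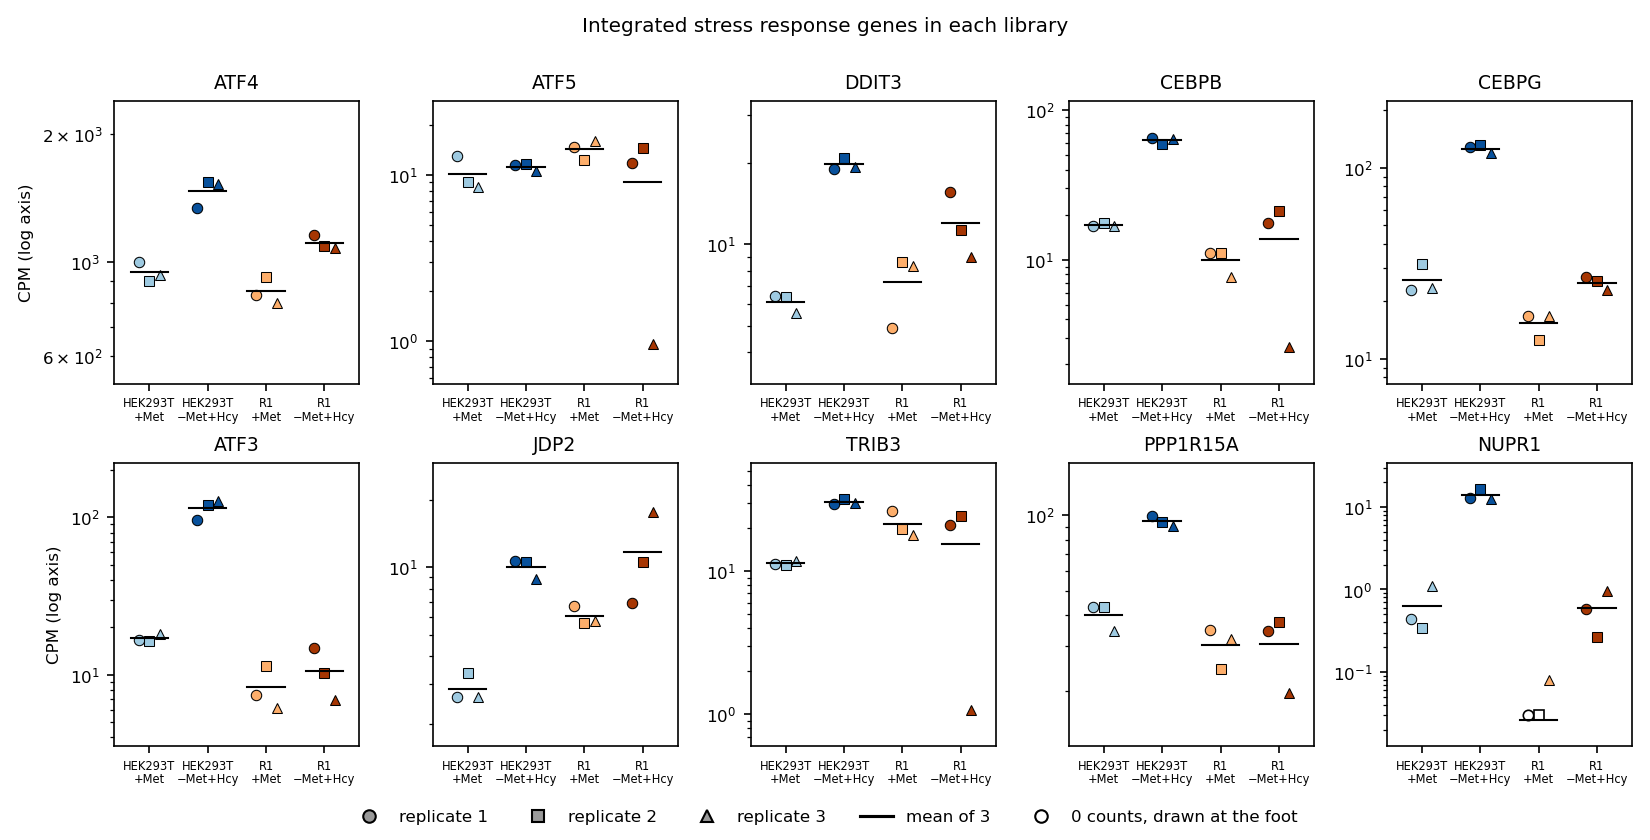
CPM of each of the 10 genes (log axis) in the 12 libraries, with symbols for replicates, bars for the mean of 3 and white symbols for libraries with 0 counts. In HEK293T cells 9 genes sit higher in −Met+Hcy without overlap, while in R1 replicate 3 of −Met+Hcy lies far below the others for ATF5, CEBPB and TRIB3.

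Among the translationally controlled factors, ATF4 (ENSG00000128272, chr22:39519695-39522683 of GRCh38), the central activator of the response, had the highest level. HEK293T cells held 998, 899 and 932 CPM of ATF4 in +Met and 1340, 1538 and 1521 CPM in −Met+Hcy. All −Met+Hcy libraries lay above all +Met libraries, but with TMM scaling the log2 fold change was 0.34 ± 0.172 (SE) and the adjusted p-value 0.265 by edgeR with Benjamini-Hochberg adjustment, so ATF4 was not called. With column sums in place of TMM the value was 0.64, with an adjusted p-value of 0.0159 in edgeR.

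ATF5 (ENSG00000169136, chr19:49928702-49933935), a relative of ATF4 known for mitochondrial stress, had 13, 9.04 and 8.39 CPM in +Met and 11.5, 11.6 and 10.6 CPM in −Met+Hcy. The groups overlapped, and the log2 fold change of -0.15 ± 0.576 turned to 0.15 with column sums. DDIT3 (ENSG00000175197, chr12:57516588-57521737), a pro-apoptotic partner of C/EBP proteins, rose from 6.45, 6.37 and 5.57 CPM to 18.9, 20.9 and 19.3 CPM. Its libraries of one medium were well separated from those of the other, with a log2 fold change of 1.39 ± 0.26 and an adjusted p-value of 0.00933 (edgeR, Benjamini-Hochberg). The DDIT3 call was lost without +Met replicate 3 (adjusted p-value 0.0547 by edgeR) or without −Met+Hcy replicate 2 (0.0526).

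The largest changes among the other bZIP factors were in ATF3 and CEBPG. ATF3 (ENSG00000162772, chr1:212565334-212620777), an immediate stress-induced factor that mostly represses transcription as a homodimer, had 16.6, 16.3 and 18.2 CPM in +Met. It reached 95.4, 120 and 126 CPM without methionine, with a fitted log2 fold change of 2.45 ± 0.285 and an adjusted p-value of 0.000958 by edgeR. CEBPG (ENSG00000153879, chr19:33373685-33382686), a C/EBP protein that pairs with ATF4, rose from 22.8, 31.4 and 23.4 CPM to 128, 132 and 119 CPM. The gap between its groups exceeded the spread within either, with a log2 fold change of 2.00 ± 0.177 and an adjusted p-value of 0.000226 by edgeR.

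CEBPB (ENSG00000172216, chr20:50190830-50192668), a C/EBP factor with activating and inhibitory protein forms, had 16.8, 17.7 and 16.9 CPM in +Met and 64.9, 59.2 and 64.2 CPM in −Met+Hcy. The replicates were tight and apart, yet the gene was not called with all 12 libraries, at 1.58 ± 0.475 and an adjusted p-value of 0.0677 by edgeR, whose spread for a gene is shared by all groups. Without R1 −Met+Hcy replicate 3 the log2 fold change was again 1.58, the SE 0.155 and the adjusted p-value 4.59e-05 by edgeR. JDP2 (ENSG00000140044, chr14:75427716-75474111), a repressor that pairs with JUN and ATF proteins, rose from 2.63, 3.36 and 2.63 CPM to 10.7, 10.5 and 8.82 CPM, a log2 fold change of 1.51 ± 0.355 and an adjusted p-value of 0.0261 by edgeR. The JDP2 call was lost when any of the 6 HEK293T libraries was left out, with adjusted p-values of 0.0632 to 0.113 by edgeR, and in the fit with the replicate block (0.0536).

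Of the feedback genes and cofactors, NUPR1 (ENSG00000176046, chr16:28532708-28539008), a small stress-induced chromatin cofactor, changed most. It had 7, 5 and 18 counts in +Met and 185, 278 and 192 counts in −Met+Hcy, or 0.438, 0.342 and 1.1 CPM against 13, 16.3 and 12.6 CPM. The log2 fold change was 4.15 ± 0.597 and the adjusted p-value 0.00291 by edgeR, with +Met counts low enough that the size of the fold is imprecise. TRIB3 (ENSG00000101255, chr20:362835-397559), a pseudokinase that inhibits ATF4 and CHOP, had 11.2, 11.1 and 11.8 CPM in +Met and 29.6, 31.9 and 29.9 CPM in −Met+Hcy. The HEK293T groups did not overlap, and the log2 fold change was 1.13 with an adjusted p-value of 0.327 by edgeR, and 0.000359 without R1 −Met+Hcy replicate 3. PPP1R15A (ENSG00000087074, chr19:48872212-48876059), the inducible subunit that directs protein phosphatase 1 to eIF2, went from 42.9, 43 and 34.7 CPM to 98.9, 94.4 and 90.2 CPM. Its log2 fold change of 0.94 ± 0.206 had an adjusted p-value of 0.0195 by edgeR and fell short of the fold threshold; with column sums it was 1.23 and called.

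Leaving out R1 −Met+Hcy replicate 3, which enters this comparison only through the shared estimate of spread, CEBPB and TRIB3 were called as well, 7 of 10 against 6.76% of all genes called higher. DESeq2 on the 12 libraries called 6, adding CEBPB, against 4.36% of all genes called higher by that tool.

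In R1 cells, the same change of medium left no member called, and 0.00583% of all genes tested were called higher by edgeR. At an unadjusted p-value under 0.05 by edgeR, 5 members were higher (ATF4, DDIT3, CEBPG, JDP2 and NUPR1) and none lower, where 5.68% of all genes were higher by that rule. DESeq2 called no member, and called 25 of 17162 genes higher. By that tool CEBPG had an adjusted p-value of 0.0109 and, at 0.76, fell short of the fold threshold. The 5 members higher at an unadjusted p-value were also those whose −Met+Hcy libraries all lay above the +Met libraries, a pattern seen in 5.22% of genes. The median log2 fold change of the 10 was 0.44, and 0.51 without −Met+Hcy replicate 3, against -0.02 and 0.00 for all genes.

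ATF4 in R1 had 834, 920 and 799 CPM in +Met and 1154, 1087 and 1079 CPM in −Met+Hcy. Its log2 fold change was 0.42 ± 0.172, and replicate 3 lay among the others. CEBPG had 16.7, 12.5 and 16.8 CPM in +Met and 26.7, 25.6 and 23 CPM in −Met+Hcy, which is a log2 fold change of 0.76 ± 0.174 and an adjusted p-value of 0.622 by edgeR, which ranged from 0.0109 to 0.952 over the alternatives. DDIT3 had 4.93, 8.64 and 8.29 CPM in +Met and 15.6, 11.3 and 8.95 CPM in −Met+Hcy, where the groups nearly touched.

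ATF3, which among the 10 genes rose most after NUPR1 in HEK293T cells, overlapped between media in R1, with 7.48, 11.3 and 6.16 CPM in +Met and 14.7, 10.3 and 6.87 CPM in −Met+Hcy. PPP1R15A also overlapped, with 34.9, 24.3 and 32 CPM against 34.7, 37.6 and 19.6 CPM. JDP2 had 6.73, 5.65 and 5.76 CPM in +Met and 6.93, 10.5 and 17.6 CPM in −Met+Hcy. The highest JDP2 value was that of replicate 3, and the log2 fold change was 1.05 with it and 0.49 without it.

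NUPR1 was nearly absent from R1 in +Met, with 0, 0 and 1 counts, and had 8, 4 and 18 counts in −Met+Hcy. The ratio of summed counts per depth was 30.4, with an exact 95% interval of 5.06 to 1241 that covers counting error only, since copies made by PCR are not independent molecules. Of the 30 counts in −Met+Hcy 18 came from replicate 3, and without it the ratio was 20.1, with an interval of 2.97 to 858. All R1 libraries in −Met+Hcy stayed at or under 0.959 CPM of NUPR1, below the 12.6 to 16.3 CPM of HEK293T cells in that medium.

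**Figure D2:**
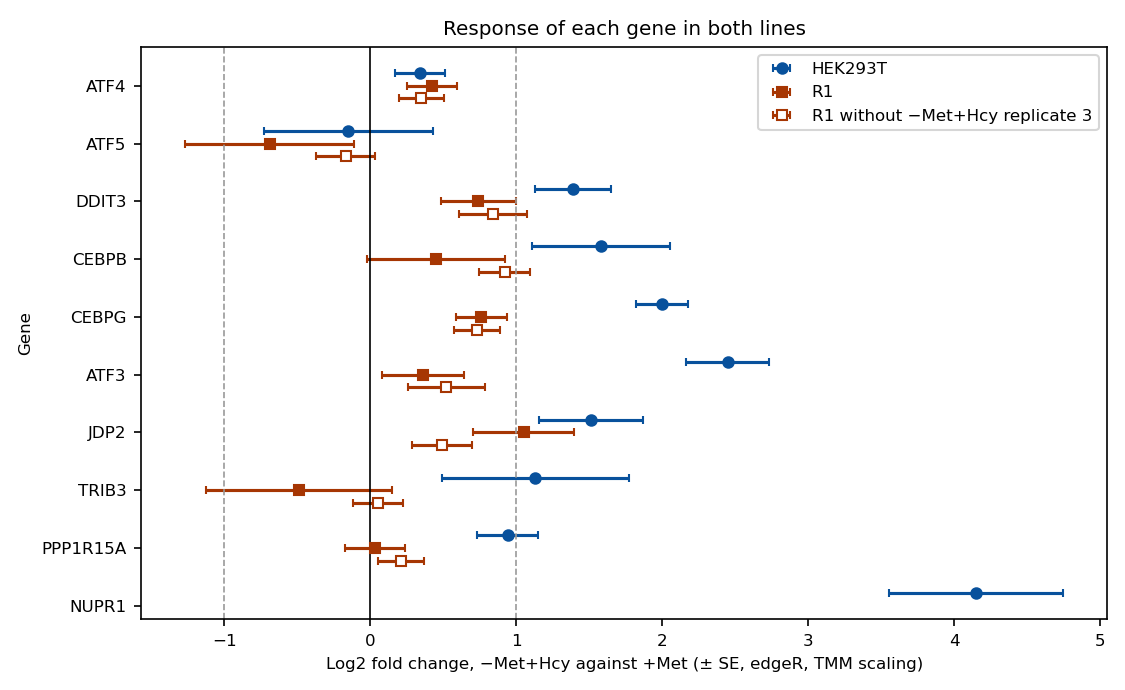
Log2 fold change of each gene, −Met+Hcy against +Met, with its SE from edgeR in HEK293T (circles), R1 (filled squares) and R1 without −Met+Hcy replicate 3 (open squares), and dashed lines at the fold threshold. ATF4 stood at 0.34 in HEK293T and 0.42 in R1, and ATF3 at 2.45 and 0.36; NUPR1 in R1 is not drawn because its +Met libraries held at most 1 count.

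The values of CEBPB, ATF5 and TRIB3 in R1 turned on 1 library. In −Met+Hcy CEBPB had 17.6, 21.2 and 2.61 CPM, ATF5 11.8, 14.4 and 0.959 CPM, and TRIB3 21.1, 24.4 and 1.07 CPM, with replicate 3 last and lowest. On the log2 scale that library was below the mean of the other replicates by a difference of -2.57 for CEBPB, -3.35 for ATF5 and -4.01 for TRIB3, the members with the highest GC content of the canonical transcript (66.2, 59.7 and 61.5%). PPP1R15A, with 59% GC, differed by -0.62, and CEBPG, with 41.3%, by 0.08. JDP2 and NUPR1 went the other way, at 1.29 and 1.25, and have the longest canonical transcripts, of 5378 and 5291 bases. Without this library the R1 log2 fold change of TRIB3 moved from -0.49 to 0.05, that of ATF5 from -0.69 to -0.17 and that of CEBPB from 0.45 to 0.92, none of them called. Over the alternatives run, the adjusted p-value of CEBPB in R1 by edgeR or DESeq2 ranged from 0.00239 to 0.992. The gene was called under none of them, since its fold change fell short of the threshold wherever that p-value passed. What part GC content or length had in these values was not tested.

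**Figure D3:**
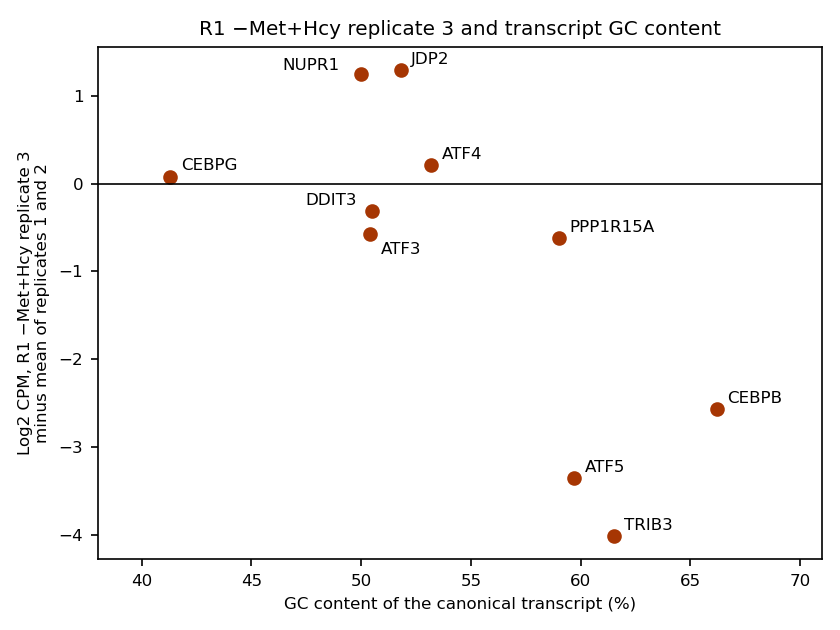
Difference in log2 CPM between R1 −Met+Hcy replicate 3 and the mean of replicates 1 and 2 for the 10 genes, against the GC content of the canonical transcript. CEBPB, ATF5 and TRIB3 lie at -2.57 to -4.01 and JDP2 and NUPR1 above 1.

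Whether the 2 lines responded differently was then tested as an interaction. No member passed with all 12 libraries, and 0.0583% of all genes tested were called lower. At an unadjusted p-value under 0.05 by edgeR, PPP1R15A, CEBPG and ATF3 had the smaller response in R1, 3 of 10, where 5.05% of all genes were lower by that rule. DESeq2 on the same libraries called ATF3 and CEBPG, against 0.717% of all genes called lower by that tool. Without R1 −Met+Hcy replicate 3, edgeR called ATF3, CEBPG and TRIB3, 3 of 10, against 1.08% of all genes called lower.

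For ATF3 the difference on the log2 scale was -2.10 ± 0.393 with an adjusted p-value of 0.126 by edgeR, and -1.93 with 0.0208 without that library. For CEBPG it was -1.24 ± 0.244 with 0.127 by edgeR, and -1.27 with 0.0152. For TRIB3 it was -1.62 with 0.575 by edgeR, and -1.07 with 0.0423. Of these 3 genes, the size of the difference moved least for CEBPG and most for TRIB3, which had 20 counts in that library. ATF4 differed by 0.08 ± 0.243 and by 0.01 without the library; with column sums the difference was -0.26. A DDIT3 difference of -0.65 ± 0.363 had an adjusted p-value of 0.575 by edgeR, which does not show that the lines responded alike.

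After 12 h in +Met, R1 cells had lower NUPR1, ATF3 and CEBPG than HEK293T cells. These were 3 of 10 called lower, against 2.95% of all genes, and none was called higher. Without R1 −Met+Hcy replicate 3, CEBPB was called lower as well, against 5.28% of all genes. On the CPM scale, 4 members were lower in R1 without overlap (CEBPB, CEBPG, ATF3 and NUPR1), as were 9.15% of genes, and 2 were higher (JDP2 and TRIB3), as were 38.1% of genes.

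The fitted log2 difference of ATF3 between the lines in +Met was -1.38 ± 0.282 with an adjusted p-value of 0.00982 by edgeR, and that of CEBPG was -1.11 ± 0.175 with 0.00255. NUPR1 in +Met held 30 counts over the 3 HEK293T libraries and 1 over the R1 libraries, a ratio of 30.9 with an exact 95% interval of 5.14 to 1260 for counting error. These calls were sensitive to single libraries. ATF3 lost its call without R1 +Met replicate 1 or 3 (adjusted p-values 0.0609 and 0.0535 by edgeR), NUPR1 without R1 +Met replicate 1 (0.0523), and CEBPG fell under the fold threshold without HEK293T +Met replicate 2 (-0.98) and came to lie on it without R1 +Met replicate 2. With column sums the CEBPG difference was -0.75 and not called, and that of JDP2 was 1.07 and called higher, with an adjusted p-value of 0.0444 by edgeR. TRIB3, with 26.3, 19.8 and 17.8 CPM in R1 and 11.2 to 11.8 CPM in HEK293T, was not called, at 0.55 ± 0.638.

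In −Met+Hcy the median log2 difference of the 10 in R1 against HEK293T was -1.37 (-1.07 without R1 replicate 3), against -0.63 in +Met. With all libraries, NUPR1, ATF4 and JDP2 had smaller differences in −Met+Hcy than in +Met. NUPR1, ATF3, CEBPG, CEBPB and PPP1R15A were lower in R1, 5 of 10 with all libraries (4.66% of all genes called lower) and the same 5 without replicate 3 (6.44%). The members that did not overlap were 8, all lower in R1, against 17.8% of genes, and the exceptions were ATF5 and JDP2.

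ATF3 was -3.47 ± 0.299 on the log2 scale in R1 against HEK293T in −Met+Hcy, with an adjusted p-value of 5.12e-05 by edgeR. In CPM, HEK293T held 95.4 to 126 and R1 6.87 to 14.7. CEBPG was -2.35 ± 0.179 with 2e-05, NUPR1 -4.47 ± 0.604 with 0.0008 (-5.14 without replicate 3), and PPP1R15A -1.67 ± 0.21 with 0.000558 by edgeR. CEBPB was -2.27 with all libraries and -1.79 without replicate 3, called in both, and was not called by edgeR on these 2 groups alone (adjusted p-value 0.0992). ATF4 was -0.42 ± 0.172 with an adjusted p-value of 0.124 by edgeR, and DDIT3 -0.75 ± 0.255 with 0.0706. Neither passed. The comparison in −Met+Hcy shares its HEK293T libraries with the response of HEK293T cells, so the lists of called genes are not independent of each other.

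Levels of different genes were compared per kilobase of the canonical transcript. ATF4 mRNA was far above the rest in each group, at 665 ± 35.4 CPM per kb (SD, n = 3) in HEK293T +Met, where PPP1R15A followed at 17.1 ± 2.03 CPM per kb. CEBPB, ATF3, CEBPG, DDIT3, ATF5 and TRIB3 came next, at mean levels from 9.32 down to 4.83 CPM per kb, and each of them overlapped with its neighbour in that order. JDP2 at 0.534 and NUPR1 at 0.119 CPM per kb were lowest. Their canonical transcripts are the longest, at 5378 and 5291 bases. Which transcripts were expressed was not tested, so the ranks depend on this choice of length.

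In −Met+Hcy the order in HEK293T cells was more spread out. ATF4 stood at 1033 ± 77.3 CPM per kb, ATF3 was next at 58.8 ± 8.49 and PPP1R15A followed at 40.2 ± 1.84. Only CEBPB and CEBPG, at 34.1 and 33.9 CPM per kb, overlapped as neighbours. ATF5 fell from rank 7 to rank 8 as TRIB3 passed it, and NUPR1 at 2.64 CPM per kb passed JDP2 at 1.86. In R1 in −Met+Hcy, ATF4 was at 780 ± 28.9 CPM per kb, followed by DDIT3 at 13.2 and PPP1R15A at 13, and each neighbouring pair from DDIT3 down to JDP2 overlapped. Without replicate 3, PPP1R15A at 15.4 CPM per kb came before DDIT3 at 14.9. The pairs DDIT3 and CEBPB, and TRIB3 and CEBPG, no longer overlapped in the 2 libraries left. ATF3 and JDP2 became neighbours and were apart, as they already were with all libraries.

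The rest of the pathway was read through 4 lists of genes, also chosen with earlier results of these data known. Of 51 known targets of the response, 17 rose and none fell in HEK293T cells by edgeR, where 3.04% of all genes were called higher. Their median log2 fold change was 0.80, against 0.03 for all genes. The examples with the largest changes were FGF21, a secreted hormone that had 82, 106 and 122 counts in HEK293T −Met+Hcy and 0 counts in all other libraries, and INHBE, an activin subunit that had 93, 113 and 82 counts there and at most 3 in any other library. CHAC1, a glutathione-degrading enzyme, rose by 4.68 ± 0.503, DDIT4, an inhibitor of mTORC1, by 3.91 ± 0.732, and SLC7A11, the cystine transporter, by 2.79 ± 0.273 on the log2 scale. In R1 none of the 51 was called with all libraries by edgeR, where 0.00583% of all genes were called higher. DESeq2 called CHAC1 (2.11) and SLC7A11 higher, among 25 of the 17162 genes tested. Without replicate 3, edgeR called CHAC1 (2.56) and SLC6A9 higher, where 3 of 17069 genes were called higher. The responses differed for SESN2, GADD45A and CTH with all libraries, all smaller in R1, where 0.0583% of all genes were called lower. Without replicate 3 the response was smaller in R1 for 9 of the 51, against 1.08% of all genes. In −Met+Hcy, 25 of the 51 were lower in R1 than in HEK293T cells, where 4.66% of all genes were called lower.

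The genes that start the response and those of the other arms of the unfolded protein response were read in the same way. Over all genes, 4.63% were called in either direction in HEK293T cells, and a count of 0 among 19 genes is near that share. Of 19 tested genes around eIF2, comprising its kinases, subunits, exchange factor and phosphatase subunits with TRIB1 and TRIB2, none was called in either direction, and the median was -0.11. Of 19 ER chaperones and degradation genes, driven by ATF6 and XBP1, none was called, with a median of -0.11. Their log2 fold change was positive for 5 and negative for 14, and HSPA5 (BiP, 0.51) and DNAJB9 (0.71) were among the 5. Neither list had a called gene in R1.

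**Figure D4:**
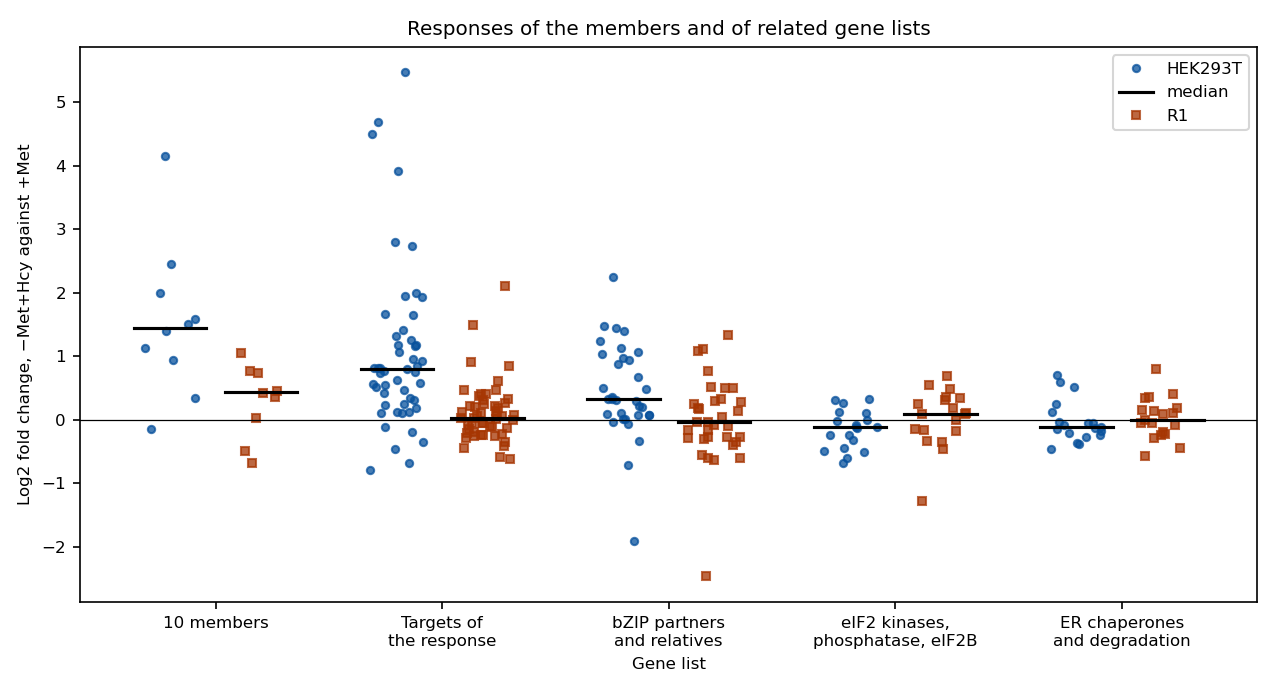
Log2 fold change, −Met+Hcy against +Met, of each gene of the 10 members and of 4 related lists in HEK293T (circles) and R1 (squares), with bars at the median of the list. In HEK293T the members and targets have medians of 1.45 and 0.80, and the eIF2 and ER lists of -0.11; FGF21 in both lines and NUPR1 in R1 enter the medians and are not drawn.

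Of the 33 tested bZIP relatives, 4 rose in HEK293T cells and none fell, where 3.04% of all genes were called higher. The 4 were NFIL3 (1.48 ± 0.234), BACH2 (1.45 ± 0.331), BACH1 (1.13 ± 0.252) and DBP (1.06 ± 0.233). Of these calls, that of BACH1 was lost when any of the 6 HEK293T libraries was left out, and those of BACH2 and DBP were lost for 5 of the 6. In R1 none of the 33 was called by edgeR with all libraries, and DESeq2 called NFIL3 (1.08) higher, among 25 of the 17162 genes tested. JUN, the AP-1 partner of ATF3 and JDP2, had 127, 134 and 112 CPM in HEK293T +Met and 345, 297 and 258 CPM in −Met+Hcy, without overlap. Its log2 fold change of 0.97 ± 0.168 had an adjusted p-value of 0.00673 by edgeR and missed the fold threshold. R1 held 70.8, 53.2 and 71.9 CPM of JUN in +Met and 62.1, 64.6 and 59.1 CPM in −Met+Hcy, lower than HEK293T in both media, by a log2 difference of -1.29 in +Met and -2.28 in −Met+Hcy, both called by edgeR. FOS stayed at or under 2.43 CPM in HEK293T and varied from 0.815 to 14 CPM in R1.

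Paralogs and partners of the members were also examined. PPP1R15B, the constitutive counterpart of PPP1R15A, had 79.7, 116 and 102 CPM in HEK293T +Met and 97.5, 86.6 and 85.1 CPM in −Met+Hcy, with overlap. The catalytic partners PPP1CA, PPP1CB and PPP1CC were not called in either response. TRIB1 was not called in either response and was called lower in R1 in both media, at -1.21 on the log2 scale in each. In either medium this call was lost for 5 of the 6 libraries when 1 was left out, and without R1 −Met+Hcy replicate 3 the value in −Met+Hcy was -0.97. TRIB2 was at or under 3.09 CPM. CEBPA ranged from 5.34 to 11.5 CPM in HEK293T without a call, CEBPD was at or under 0.841 CPM there (a log2 fold change of 2.24, not called with all libraries by edgeR and called without R1 −Met+Hcy replicate 3), CEBPE had 0 counts in all libraries, and NUPR2 had 2 counts in all. BATF3, a partner of JUN, ranged from 12.9 to 19.2 CPM in HEK293T without a call.

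The members' mean level per library, as log2 CPM centred per gene, was -0.22 to -0.11 in HEK293T +Met and 1.28 to 1.44 in −Met+Hcy. It was -0.79 to -0.73 in R1 +Met, and -0.16, -0.21 and -1.04 in R1 −Met+Hcy, the last being replicate 3. Outside all lists, and among 11523 genes that reached 5 CPM on average in some group, the genes whose log2 CPM followed this mean most closely over the 12 libraries were NSMCE3 (Pearson's r 0.993), MSX2 (0.988), SERTAD1 (0.985), CLP1 (0.984) and TRIM32 (0.982). The libraries share the same 4 groups and the same scaling, so r mostly reflects the contrast between groups, and no p-value is given. SERTAD1 had 10.4, 9.8 and 15.1 CPM in HEK293T +Met and 58.3, 68.3 and 71.9 CPM in −Met+Hcy, and 5.62 to 7.93 CPM in R1 +Met. In R1 −Met+Hcy it had 16.1, 9.69 and 3.68 CPM, with replicate 3 lowest.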

How the data were processed

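Counts of RNA sequencing reads were analysed for the 12 libraries of HEK293T and R1; those of MB468 and R8 were left out. Per the authors' notes, reads were quantified with kallisto 0.48.0 against GRCh38, and the deposited values are whole-number counts per Ensembl gene, summed by the authors over its transcripts and not scaled. The strand setting is not given in the sources used here. As in the study's methods, a summed count of at least 10 was required, which left 17162 of 23500 genes. The main test was edgeR 4.0.16 (R 4.3.3), its quasi-likelihood test with TMM scaling on all 4 groups together (8 residual degrees of freedom). SE is the log2 fold change over the root of the F statistic.

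Alternatives were DESeq2 1.42.0 (the study's tool), RLE scaling, other filters, robust spread, only the groups compared, the replicate block, the adjusted p-value alone and each library left out. Chosen after seeing the data were column sums without TMM, removal of GC and length trends (loess, span 0.3), and these trends or DESeq2 without R1 −Met+Hcy replicate 3. The members and lists were chosen with earlier results of these data known. Genes named are the members and their paralogs and partners. Also named are the 5 list genes with the largest change among those called in HEK293T cells and the 5 genes most alike in pattern. Others (SLC6A9, SESN2, GADD45A, CTH, HSPA5, DNAJB9, DNAJC3, the called bZIP genes and the markers) were named after their values were seen. Positions and canonical transcripts come from GENCODE and promoter windows from RefSeq. Libraries of a group differed beyond sampling noise (chi-square per gene 7.13 to 236), so none was treated as a duplicate. The model was also run on simulated counts, with a spread estimated without R1 −Met+Hcy replicate 3. The simulation held no library that deviates like that one, so it does not cover its effect, and its outcome is not given here.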

Additional observations from a re-analysis of the deposited data

How the results depend on the processing

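No member was called in R1 under any alternative run, and the number lower in R1 in −Met+Hcy stayed between 4 and 6. The absence of calls in the R1 response rested in part on the fold threshold. CEBPG had an adjusted p-value of 0.0109 by DESeq2 at a log2 fold change of 0.76. CEBPB had 0.0455 by edgeR at 0.97 with GC and length removed and R1 −Met+Hcy replicate 3 left out. The rule of the adjusted p-value alone was applied to the main fit only. In HEK293T cells the count of 5 became 8 with the GC and length trend removed, with or without R1 −Met+Hcy replicate 3, and ran from 3 to 7 with 1 library left out; 3 remained without +Met replicate 3 or −Met+Hcy replicate 2. For the difference between responses the count of 0 became 2 with DESeq2, with column sums, with the GC trend removed or with GC and length removed; without R1 −Met+Hcy replicate 3 it was 3 with edgeR, 3 with GC and length removed and 4 with DESeq2, and the range with 1 library left out was 0 to 3. For R1 against HEK293T in +Met the range with 1 library left out was 1 to 4. All-gene counts moved as well. In HEK293T cells, 521 of 17162 genes were called higher in the main fit, 749 with DESeq2 and 1212 with column sums. Without R1 −Met+Hcy replicate 3 it was 1154 of 17069. For the difference, 10, 123 and 31 were called lower in that order, and 184 without that library. All-gene counts are not given for the other settings, the replicate block included, so member counts there have no such share beside them. The cause of these shifts was not tested.

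Deviations from the group mean showed no pairing by replicate number. Their correlations ran from -0.718 to 0.595 for same-numbered libraries and from -0.763 to 0.766 for differently numbered ones. With deviations taken within groups of 3 libraries, these values cannot exclude a shared batch or paired cultures. With the replicate block, 4 members were called in HEK293T, 0 in R1, 0 for the difference, 3 lower in +Met and 5 lower in −Met+Hcy.

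No called value changed sign. With column sums the log2 fold change was 0.15 for ATF5 in HEK293T cells and 0.25 for DDIT3 in R1 against HEK293T in +Met, and the difference between responses was -0.26 for ATF4 and -0.04 for NUPR1. With GC and length removed and R1 −Met+Hcy replicate 3 left out, values were 0.07 for TRIB3 in R1, -0.07 for ATF4 and -0.25 for NUPR1 in the difference, 0.34 for DDIT3 in +Met (0.34 also with the library), and 0.01 for ATF5 and -0.44 for JDP2 in −Met+Hcy. With DESeq2 without that library they were 0.04 for TRIB3 in R1, 0.11 for ATF5 and -0.30 for JDP2 in −Met+Hcy. The GC trend alone gave -0.00 for ATF5 in +Met, and the block -0.01 for NUPR1 in the difference. With 1 library left out, ranges were -0.27 to 0.09 for ATF5 in HEK293T, -0.97 to 0.05 for TRIB3 and -0.10 to 0.21 for PPP1R15A in R1, -0.01 to 0.16 for ATF4 and -0.38 to 2.13 for NUPR1 in the difference, -0.27 to 0.12 for DDIT3 in +Met, and -0.90 to 0.12 for ATF5 and -0.29 to 0.56 for JDP2 in −Met+Hcy.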
